A study of Mus musculus with 8 samples.

Results

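Gene expression in sorted T follicular helper (Tfh) cells was compared with that in cultured Th17 cells, on 2 Affymetrix arrays of each type out of 8 in the study. All probe sets with 1 gene symbol entered, with 1 probe set per gene, which gave 18193 genes, of which 11178 passed a filter on low values and were tested. The Tfh cells were CD4+CXCR5+ T cells from spleens of C57BL/6 mice, sorted by flow cytometry 7 days after immunization with keyhole limpet haemocyanin (KLH) and then restimulated with anti-CD3 for 4 h. The Th17 cells grew from naive CD4 T cells of spleen and lymph node of OT-II mice on the C57BL/6 background, aged 6 to 8 weeks, whose transgenic T cell receptor recognizes an ovalbumin peptide. They were activated with that peptide and antigen-presenting cells (APC) for 5 days with IL-6 at 20 ng/ml, TGF-beta, anti-IL-4 and anti-IFN-gamma. The other 4 arrays held Th1 and Th2 cells from OT-II mice, cultured for 5 days with peptide and APC under their own cytokine conditions. Cell type, source, receptor repertoire, stimulation and time therefore changed together and cannot be told apart. CXCR5 marks further CD4 cells besides Tfh cells, and APC or their RNA could remain in a culture. Nothing in the labels ties a replicate to its own animal or culture. The p-values therefore rest on the spread between these arrays, which may be technical.

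Th17 cells defend mucosal surfaces through IL-17 cytokines, which make epithelia recruit neutrophils. They form when TGF-beta and IL-6 act together through STAT3 and nuclear receptors such as ROR-alpha. Tfh cells sit in B cell follicles, which they enter through CXCR5 under the repressor Bcl6, and help B cells form germinal centres through IL-21, IL-4 and CD40 ligand. Both types can make IL-21 and use Maf, Batf and Irf4, so their programmes overlap.

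All values are GCRMA log2 values, a scale of probe set brightness that is normalized between arrays, and they are compared only within a gene. The Tfh arrays were shaped differently: their 65th percentiles were 6.91 and 6.98, against 5.31 on both Th17 arrays. The median tested gene lay 0.83 higher in Tfh than in Th17 as deposited. After joint quantile normalization of the 8 arrays it lay 0.16 lower in Tfh than in Th17. Differences below are as deposited unless the quantile value is named, and calls are given for both scales. The 25th percentile of an array was 2.37 to 2.40 on all 4 arrays, and a gene at about this level is near the floor of the method, where a difference from it depends on the floor. Values at the floor hardly vary between arrays. A gene at the floor in all cultures therefore gets a small SE and adjusted p that largely reflect this narrow spread. Foxp3, Camp, Sostdc1, St6galnac3 and Pou6f1 below are such genes, and their small p-values do not make them the most certain results. The Tfh arrays were nearly alike (11 tested genes apart by over 1 log2 unit, r = 0.9984), whereas the Th17 arrays differed in many genes.

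Transcripts of the sex chromosomes also moved with the comparison, and they were picked out after their values were seen. Xist, the non-coding RNA that silences an X chromosome in female cells, stood at 13.83 and 14.09 in Tfh and 2.82 and 2.55 in Th17. Eif2s3y, a translation factor gene on the Y chromosome, stood at 3.12 and 3.08 in Tfh and 10.87 and 11.34 in Th17. Kdm5d and Uty, both histone demethylase genes on the Y, were likewise near the floor on both Tfh arrays (2.31, 2.28 and 2.43, 2.40) and at 7.38, 7.98 and 6.43, 6.64 in Th17. The labels give no sex, so between Tfh and Th17 the cell type and these transcripts cannot be told apart. These transcripts also varied within a cell type. Xist stood at 2.79 and 11.09 in Th1 and 5.48 and 11.92 in Th2, and Eif2s3y at 10.98 and 9.88 in Th1 and 11.10 and 2.42 in Th2. The Th1 and Th2 arrays enter the estimate of spread that all groups share, and so widen the SE here. With 1 array left out the differences themselves moved little. They stayed at 11.14 to 11.41 in Xist, -8.24 to -7.77 in Eif2s3y, -5.68 to -5.08 in Kdm5d and -4.23 to -4.01 in Uty. The 4 calls were lost without either Tfh array (adjusted p 0.0678 to 0.123) and without Th17 replicate 2 (0.0607 to 0.116). Those for Xist, Eif2s3y and Uty also ended without Th17 replicate 1 (0.0719, 0.102 and 0.0539), and that for Eif2s3y without Th1 replicate 1 or 2 (0.0579 and 0.0578).

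**Figure D1:**
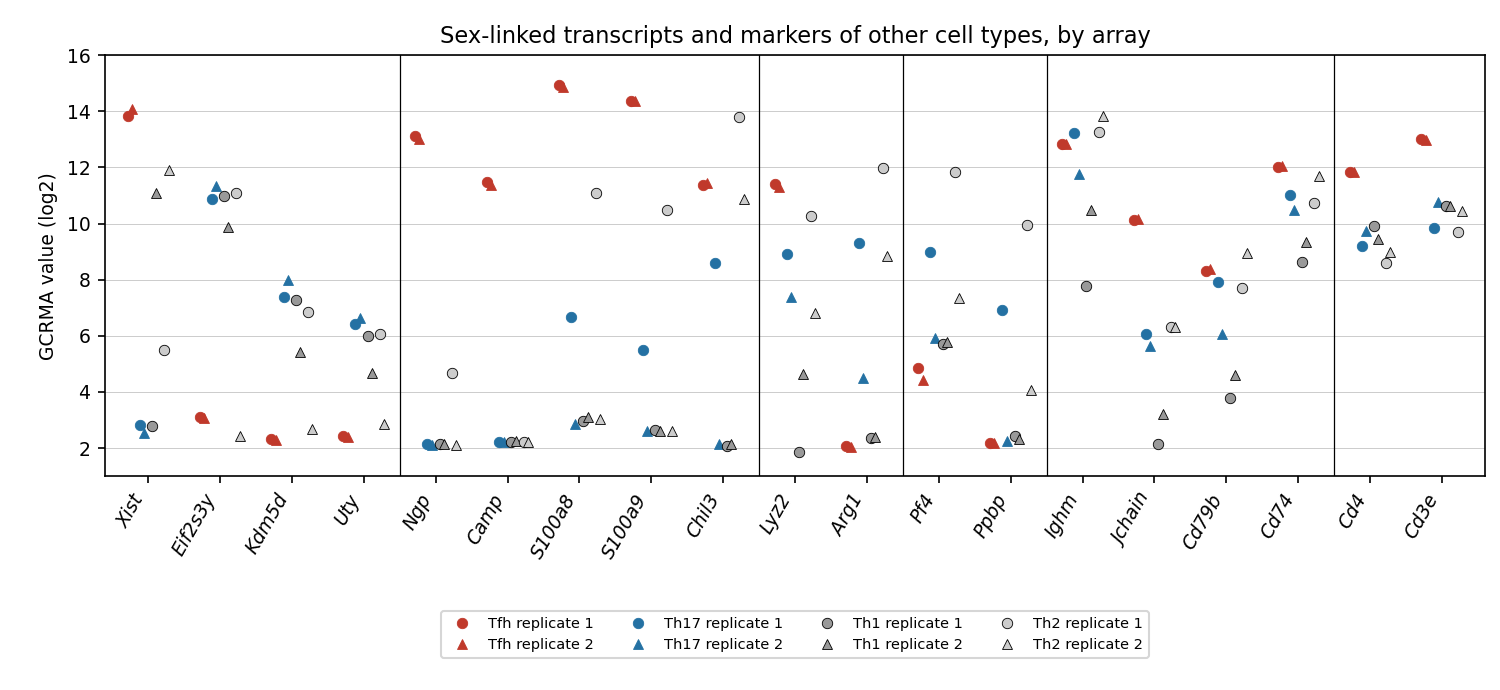
GCRMA values (log2, y axis) of sex-linked transcripts, neutrophil, macrophage, platelet and B cell or MHC class II markers and 2 T cell genes, separated by vertical lines, on all 8 arrays; circles are replicate 1 and triangles replicate 2. Tfh (red) is high in Xist and the neutrophil genes and low in the Y-linked genes, while Th17 (blue) has the Y-linked genes and, on replicate 1 more than 2, macrophage and platelet genes.

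A gene was called when its adjusted p (limma with Benjamini-Hochberg adjustment over the 11178 genes) was under 0.05 and its difference at least 1 log2 unit, or 2-fold. As deposited, 4667 genes were called higher in Tfh (41.8% of those tested) and 690 lower (6.17%), 47.9% in either direction. After quantile normalization 1561 were called higher (14.0%) and 2266 lower (20.3%), so the split between directions turned with the scaling. All text below leads with genes called in the same direction on both scales: 1561 higher (14.0%) and 685 lower (6.13%), 20.1% in either direction. Both Tfh arrays lay above both Th17 arrays in 69.0% of tested genes as deposited and below both in 18.0%. For lower calls this check is weak, since quantile normalization lowers Tfh further. The lower count fell to 451 without Tfh replicate 2. Among the genes called on both scales, 262 of the higher ones lay at or below the filter value of 3.13 on both Th17 arrays, and 265 of the lower ones on both Tfh arrays.

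The Th17 cytokine that names the lineage was high in Th17 but also clearly above the floor in Tfh. Il17a stood at 10.98 on both Tfh arrays and at 14.35 and 13.93 on the Th17 arrays. The groups did not overlap, and Il17a fell by 3.16 in Tfh (SE 0.59, adjusted p = 0.00476), an 8.96-fold difference, and by 3.89 after quantile normalization. As deposited, Th1 and Th2 lay between 8.67 and 10.59, so the Tfh arrays were above all 4 of them. After quantile normalization Th17 was above the mean of Th1 and Th2 by 4.42, and above Tfh by 3.89. Whether Tfh stayed above each of the 4 arrays after that normalization is not given.

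Of the 8 tested cytokine genes of the Th17 list, 2 were called lower in Tfh on both scales and none higher. The shares of all tested genes were 6.13% and 14.0%. Csf2, encoding GM-CSF, stood at 8.74 and 8.65 in Tfh and 10.91 and 9.81 in Th17, a fall by 1.67 in Tfh (SE 0.39, adjusted p = 0.0115). Csf2 was higher still in Th1 (13.13 and 13.79) and Th2 (12.66 and 12.83), so its level was not particular to Th17. Its call ended without Tfh replicate 1 (adjusted p = 0.0534) or 2 (0.0602). Il21, which serves both lineages, stood at 10.69 and 10.59 in Tfh and higher, at 12.46 and 13.20, in Th17. Its difference of -2.19 was not called as deposited (adjusted p = 0.0754) and was called after quantile normalization (-3.07, adjusted p = 0.0291). Several genes of this list differed more between the Th17 arrays than between the groups. Il24 stood at 10.80 on Th17 replicate 1 and 3.38 on replicate 2, Il10 at 9.37 and 6.52, and Ccl20, a ligand of CCR6, at 2.82 and 7.24. None of these was called on either scale, nor was Il9, which was near the floor. Lif, at 10.87 to 11.67 on all 4 arrays, was not called as deposited (-0.65) and was called lower after quantile normalization (-1.49, adjusted p = 0.0266). The median difference of the 8 genes was -1.56 as deposited and -2.46 after quantile normalization, beside 0.83 and -0.16 for all tested genes. Their median level was 10.86 and 8.53 on the Th17 arrays, 9.34 and 7.83 in Th1, and 12.07 and 12.49 in Th2. The list as a whole was thus highest in Th2 and did not mark Th17 alone.

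**Figure D2:**
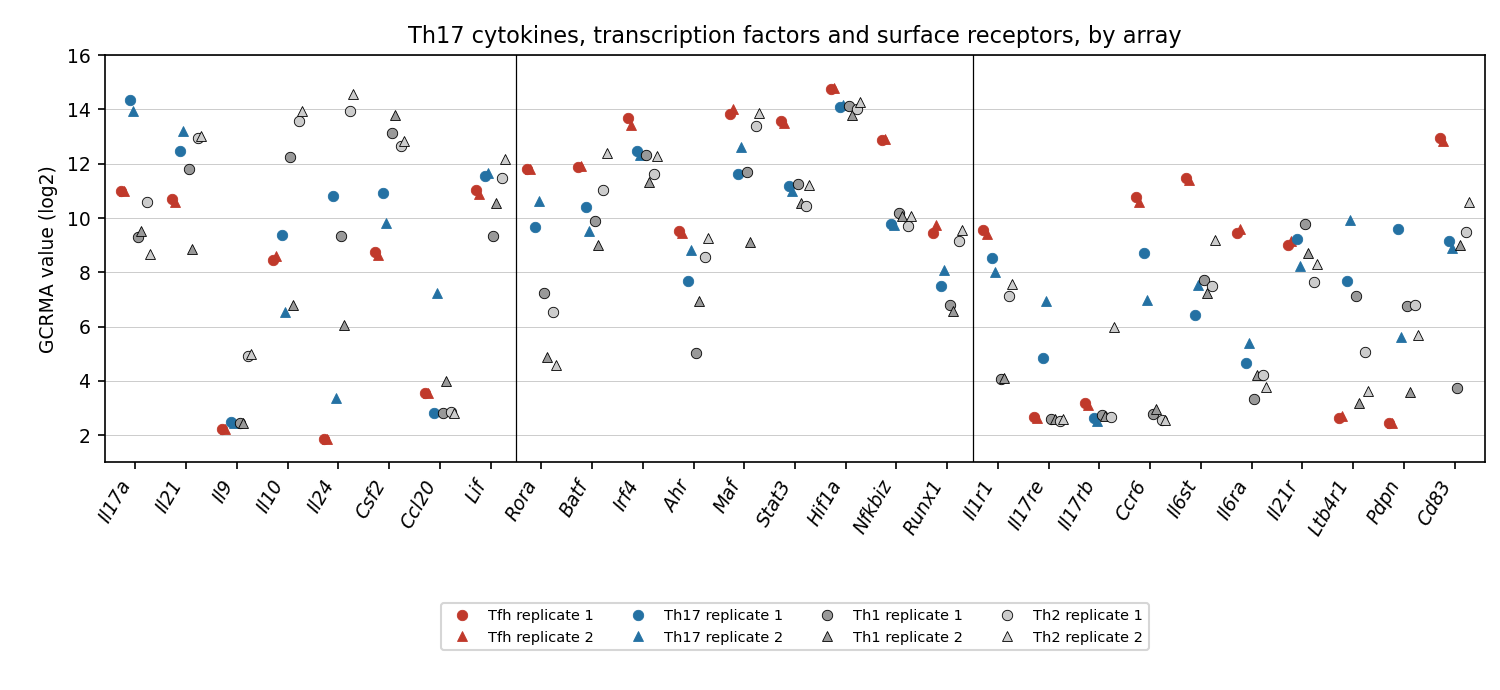
GCRMA values (log2, y axis) of the tested Th17 cytokines (left), transcription factors (middle) and surface receptors (right) on the 8 arrays; circles are replicate 1 and triangles replicate 2. Il17a is highest in Th17 (blue), while the 9 transcription factors are each higher on both Tfh arrays (red) than on both Th17 arrays.

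The factors that act in Th17 differentiation were not lower in Tfh. On both Tfh arrays each of the 9 tested genes lay above both Th17 arrays, an arrangement shared by 69.0% of all tested genes as deposited. On both scales 2 were called higher, beside 14.0% of all tested genes. Stat3, which carries the IL-6 signal, stood at 13.59 and 13.49 in Tfh and 11.17 and 10.98 in Th17, a difference of 2.47 (SE 0.33, adjusted p = 0.00134; 2.00 after quantile normalization). Nfkbiz, encoding an inducible nuclear IkB protein that supports Il17a transcription, stood at 12.88 and 12.92 in Tfh and 9.79 and 9.76 in Th17, a difference of 3.13 (SE 0.15, adjusted p = 3.14e-05; 2.53 after quantile normalization).

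Batf, Irf4 and Runx1 were called higher as deposited (1.94, 1.16 and 1.81) but not after quantile normalization (1.22, 0.73 and 0.60). The calls for Batf and Irf4 ended without Tfh replicate 1 (adjusted p = 0.0917 and 0.148), Tfh replicate 2 (0.0922 and 0.0920) or Th17 replicate 2 (0.108 and 0.120), and that for Irf4 also without Th17 replicate 1 (0.0905). Rora, which encodes ROR-alpha, stood at 11.79 and 11.82 in Tfh, 9.68 and 10.64 in Th17, and 4.59 to 7.24 in Th1 and Th2. Both types were above all Th1 and Th2 arrays in Rora, but neither its difference between Tfh and Th17 (1.64, adjusted p = 0.177) nor that between Th17 and the mean of Th1 and Th2 (4.35, adjusted p = 0.143) was called. Maf (1.80), Ahr (1.24) and Hif1a (0.67) were not called on either scale.

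Among 10 tested surface receptors of the Th17 list, 3 were higher in Tfh and 3 lower on both scales. The shares of all tested genes were 14.0% and 6.13%. The receptor subunits for IL-6 were higher in Tfh. Il6ra, the specific chain, stood at 9.46 and 9.61 in Tfh and 4.67 and 5.40 in Th17, a difference of 4.50 (SE 0.39, adjusted p = 2.94e-04; 3.20 after quantile normalization). Il6st, the shared signalling chain gp130, stood at 11.48 and 11.39 against 6.43 and 7.53, a difference of 4.45 (SE 0.62, adjusted p = 0.00163; 3.54 after quantile normalization). The Th17 cultures received IL-6, and the Tfh cells had no labelled cytokine.

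Ccr6, the receptor that takes Th17 cells and B cells to CCL20, was the remaining higher one. It stood at 10.77 and 10.59 in Tfh, 8.73 and 6.99 in Th17, and 2.56 to 2.98 on the 4 Th1 and Th2 arrays, close to the floor. Its difference between Tfh and Th17 was 2.82 (SE 0.54, adjusted p = 0.00548; 1.77 after quantile normalization). The lower ones were Il17re, a receptor chain for IL-17C, Ltb4r1, the leukotriene B4 receptor, and Pdpn, the glycoprotein podoplanin. Il17re stood at 2.66 and 2.65 in Tfh and 4.84 and 6.95 in Th17 (-3.23, SE 0.62, adjusted p = 0.00556). Ltb4r1 stood at 2.64 and 2.69 against 7.69 and 9.92 (-6.14, SE 1.41, adjusted p = 0.0106), and Pdpn at 2.46 and 2.45 against 9.58 and 5.61 (-5.14, SE 1.53, adjusted p = 0.0278). All 3 were near the floor in Tfh and varied between the Th17 arrays. The call for Ltb4r1 ended without Tfh replicate 1 (0.0548), Tfh replicate 2 (0.0531) or Th17 replicate 2 (0.0547). The call for Pdpn ended without either Tfh array (0.103 for each) or without Th17 replicate 1 (-3.16, adjusted p = 0.103).

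Whether a change against Th17 differs from that against the other cultures was tested as Th17 minus the mean of Th1 and Th2, a comparison in which the Tfh arrays cancel. In that test 11 genes were higher in Th17 (0.0984% of those tested) and 16 lower (0.143%), with 1139 genes at an unadjusted p under 0.05. The higher ones included Ccr6 (5.14, SE 0.47, adjusted p = 0.0222), Il17a (4.62, adjusted p = 0.0481) and Il1r1, the IL-1 receptor that supports Th17 cells (2.57, adjusted p = 0.0203). Il1r1 stood at 9.57 and 9.42 in Tfh, 8.54 and 8.02 in Th17, 7.13 and 7.57 in Th2 and 4.06 and 4.09 in Th1. As deposited, both Tfh arrays were thus above all the others. Against Th17 it was called higher in Tfh as deposited (1.22, adjusted p = 0.00873), while the difference was 0.00 after quantile normalization. That call ended without Tfh replicate 1 (adjusted p = 0.0635) and, below the 2-fold threshold, without Th17 replicate 2.

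These calls were fragile. The count of higher genes fell to 3 without Tfh replicate 1 or 2, which add only to the estimate of spread, and rose to 64, 37 and 53 without Th17 replicate 1, Th17 replicate 2 and Th1 replicate 1. The count of lower genes was 9 without Tfh replicate 1 or 2, 34 without Th17 replicate 1, 50 without Th1 replicate 1, and 28 and 53 without Th2 replicate 1 and 2. The difference in Il17a had an adjusted p under 0.05 in 5 of 19 alternatives, that in Ccr6 in 12 and that in Il1r1 in 13, with differences of 4.04 to 5.10, 3.63 to 6.01 and 1.27 to 2.83. Ccr6 lost its call without Tfh replicate 1 (0.121) or 2 (0.122), Th1 replicate 2 (0.0620) or Th2 replicate 1 (0.0697). Il1r1 lost its call without Tfh replicate 1 (0.133) or 2 (0.132) or Th1 replicate 2 (0.0538), and Il17a kept its call only without Th2 replicate 1 (0.00146) or 2 (0.0017) when 1 array was left out. With the replicate number as a block all 3 calls ended (adjusted p = 0.0563 in Ccr6, 0.0791 in Il17a and 0.0772 in Il1r1).

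The Tfh programme was higher in Tfh in part. Of its 29 tested members, 12 were called higher on both scales and none lower, beside 14.0% and 6.13% of all tested genes. The median difference of the 29 was 2.95 (2.11 after quantile normalization). Cxcr5, which is among the 12, was the sorting marker and is no finding. It stood at 11.25 and 11.20 in Tfh, and Th17 had 8.12 and 6.02. Bcl6 stood at 11.99 and 11.91 in Tfh and 6.46 and 8.62 in Th17, a difference of 4.41 (SE 0.87, adjusted p = 0.00599; 3.61 after quantile normalization). Tox and Tox2, DNA-binding factors of activated and follicular T cells, stood at 11.63, 11.89 and 12.44, 12.33 in Tfh. In Th17 Tox lay near the floor (3.76 and 3.62), whereas Tox2 was well above it (7.95 and 9.02).

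**Figure D3:**
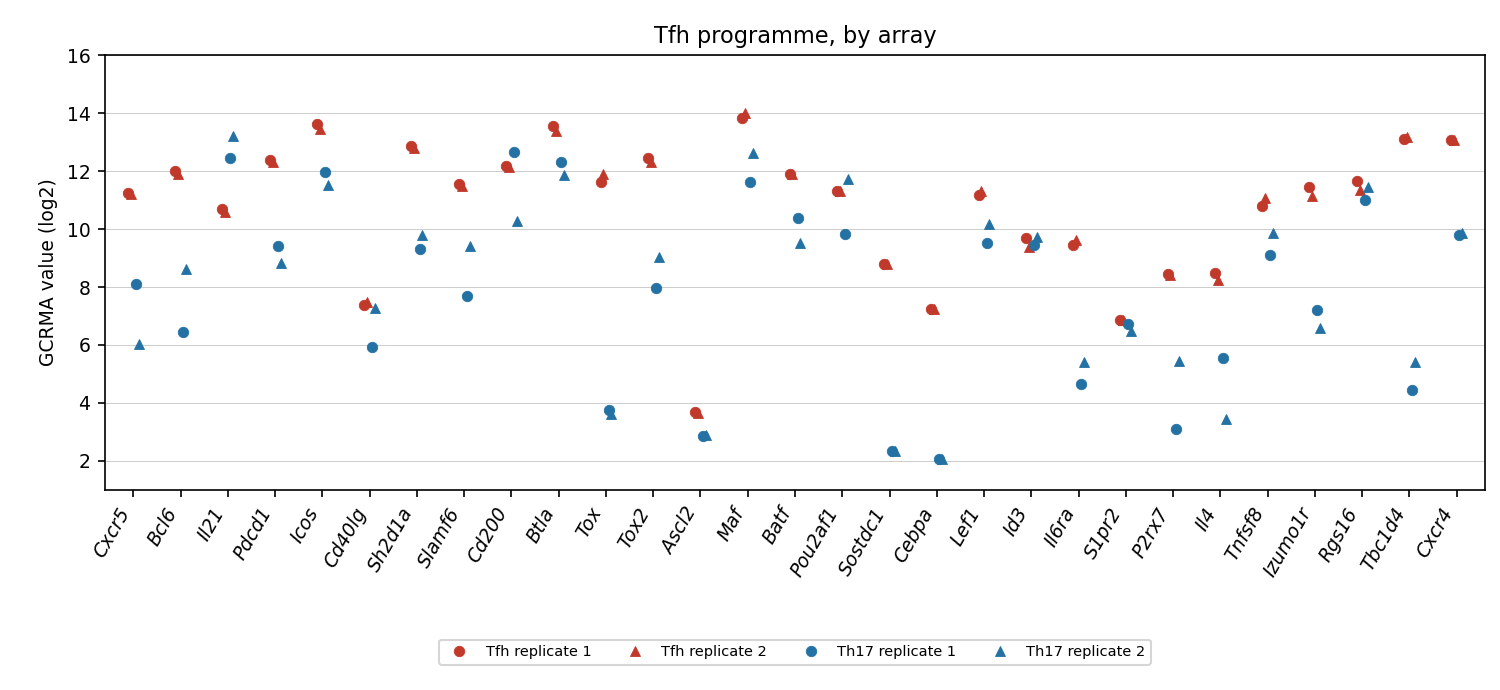
GCRMA values (log2, y axis) of the 29 tested genes of the Tfh programme on the Tfh (red) and Th17 (blue) arrays; circles are replicate 1 and triangles replicate 2. Tox, Sostdc1, Cebpa and Tbc1d4 stand far above Th17, while Cd200, Id3, S1pr2, Rgs16 and Pou2af1 overlap with or lie next to it and Il21 lies below it.

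Receptors and adaptors of T cell and B cell contact were among the higher genes. Pdcd1, the inhibitory receptor PD-1, stood at 12.38 and 12.31 in Tfh and 9.42 and 8.83 in Th17 (3.22, SE 0.43, adjusted p = 0.00137). Sh2d1a, encoding the SLAM adaptor SAP, stood at 12.85 and 12.79 against 9.32 and 9.79 (3.27, SE 0.50, adjusted p = 0.00239), and Slamf6 differed by 2.95 (SE 0.67, adjusted p = 0.0102). Tbc1d4, a Rab GTPase activating protein gene, differed by 8.21 (SE 1.44, adjusted p = 0.00387), and Sostdc1, a secreted BMP and Wnt antagonist gene, by 6.46 (SE 0.08, adjusted p = 6.31e-07). Cebpa, at 7.25 on both Tfh arrays and 2.07 on both Th17 arrays, is also a factor of myeloid cells, whose markers are given below. The call for Slamf6 ended without Tfh replicate 1 (0.0546) or 2 (0.0511). Izumo1r, encoding folate receptor 4, differed by 4.39 and lost its call without any of the 4 arrays compared (0.0525 to 0.0819). The call for Cxcr5 ended without Tfh replicate 1 (0.0561) or 2 (0.0535).

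In the following members of the Tfh programme no difference was called on either scale. Cd200 stood at 12.18 and 12.13 in Tfh and 12.67 and 10.29 in Th17, Id3 at 9.70 and 9.39 against 9.45 and 9.71, and Pou2af1 at 11.33 and 11.31 against 9.84 and 11.74. Il4 stood at 8.49 and 8.25 against 5.54 and 3.46 without being called (3.87, adjusted p = 0.0606). Icos, the costimulator required for Tfh cells, was at 13.64 and 13.45 in Tfh and 11.98 and 11.52 in Th17 and was not called (1.79, adjusted p = 0.172); the Th1 arrays, which enter the shared estimate of spread, stood at 12.34 and 9.08.

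Regulators listed under other helper types were mixed, and some of them, Ikzf3 included, are not particular to 1 type. Of 14 tested, 5 were called higher in Tfh on both scales and 2 lower, beside 14.0% and 6.13% of all tested genes. Foxp3, the factor of regulatory T cells, stood at 10.79 and 10.73 in Tfh and 2.38 and 2.36 in Th17. The difference was 8.39 (SE 0.10, adjusted p = 6.31e-07) and 7.66 after quantile normalization. Th1 and Th2 were at the floor as well (2.37 to 2.40), so the SE and adjusted p largely reflect the narrow spread there. Gata3, the Th2 factor, stood at 10.67 and 10.52 against 5.95 and 6.97 (4.14, SE 0.91, adjusted p = 0.00904), a call lost without Tfh replicate 1 (0.0509). Stat4 and Stat6, which carry the IL-12 and IL-4 signals, were higher by 2.73 and 2.49 (SE 0.17 and 0.19), and Ikzf3, encoding Aiolos, by 3.52 (SE 0.46). Tbx21, the Th1 factor, was called as deposited (2.06) but not after quantile normalization (1.02), and its call ended without Tfh replicate 1 (0.0804), Tfh replicate 2 (0.0737) or Th17 replicate 2 (0.0807).

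The lower regulators were Id2 and Zbtb32. Id2, an inhibitor of E proteins, stood at 12.03 and 12.26 in Tfh and 13.58 and 13.80 in Th17 (-1.55, SE 0.52, adjusted p = 0.0403). Zbtb32, a repressor induced in activated lymphocytes, stood at 7.57 and 7.18 against 9.70 and 8.83 (-1.89, SE 0.47, adjusted p = 0.0146). Each fell in Tfh with arrays that did not overlap. The call for Id2 was lost without any 1 of the Tfh, Th17 or Th2 arrays (0.0625 to 0.153), and that for Zbtb32 without Tfh replicate 2 (0.0808) or Th17 replicate 1 (0.0699). The other tested probe set of Zbtb32 was near the floor on all 4 arrays, with a difference of 0.26.

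Of 15 tested regulatory T cell genes, Foxp3 included, 4 were called higher in Tfh on both scales and 1 lower, beside 14.0% and 6.13% of all tested genes. Ikzf2, encoding Helios, stood at 12.89 and 12.84 in Tfh and 7.16 and 4.39 in Th17 (7.09, SE 0.85, adjusted p = 9.33e-04). Nt5e, the ectonucleotidase CD73, stood at 12.40 and 12.22 against 3.58 and 6.56 (7.25, SE 1.18, adjusted p = 0.00294), with its other probe sets at 5.88 and -1.33. Il2ra, the high-affinity chain of the IL-2 receptor on regulatory and activated T cells, went the other way, at 10.01 and 9.99 against 12.97 and 12.46 (-2.72, adjusted p = 0.005). In bulk RNA, more cells of a type and more RNA per cell cannot be told apart, so these values do not say which sorted cells carried the transcripts.

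The 12 largest differences upward, ranked by the smaller of both scales, held Xist, 6 neutrophil genes, Foxp3, Tbc1d4, St6galnac3, Tox and Pou6f1. Ngp, Camp, Ltf and Lcn2 encode proteins of neutrophil granules. Camp, the antimicrobial peptide precursor, stood at 11.48 and 11.36 in Tfh and 2.22 and 2.21 in Th17 (9.21, SE 0.11, adjusted p = 6.31e-07). Ngp stood at 13.13 and 13.02 against 2.13 and 2.12, Ltf (lactoferrin) at 11.33 and 11.32 against 2.34 and 2.32, and Lcn2 (lipocalin 2) at 12.25 and 12.23 against 2.74 and 2.72. S100a8 and S100a9, which form calprotectin, reached 14.93, 14.85 and 14.38, 14.36 in Tfh, and in Th17 were above the floor on replicate 1 alone (6.66 and 5.50, against 2.87 and 2.62). Their calls ended without Tfh replicate 1 (0.0744 and 0.0603), Tfh replicate 2 (0.0726 and 0.0595) or Th17 replicate 2 (0.0824 and 0.0634). St6galnac3, a sialyltransferase gene, and Pou6f1, a POU domain factor gene, differed by 8.02 and 7.93 (SE 0.11 and 0.10) and were near the floor on both Th17 arrays.

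The 15 tested neutrophil markers had a median difference of 6.03 (5.31 after quantile normalization). On both scales 10 were called higher in Tfh and none lower, beside 14.0% and 6.13% of all tested genes. They included Mpo (8.67 and 8.66 against 2.28 and 2.27), Elane (7.76 and 7.61 against 2.22 on both) and Csf3r, the G-CSF receptor (6.13 and 6.29 against 2.99 and 2.95). The log2 of the list's summed linear level was 16.21 and 16.15 on the Tfh arrays and 9.80 and 7.01 on the Th17 arrays, and 9 of the 15 markers lay at or below the filter value on both Th17 arrays. Cxcr2, the chemokine receptor of mature neutrophils, was low in both types (4.03 and 4.01 against 4.38 and 5.36), as was Mmp8 except on Th17 replicate 1 (3.86 and 4.17 against 7.51 and 2.21). Their part in the other differences was not tested.

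Markers of other cells were present in both types. The counts here and in the next paragraph stand beside 14.0% of all tested genes called higher on both scales and 6.13% lower. Of 12 tested B cell markers 3 were called higher in Tfh: Fcer2a (8.61 and 8.59 against 3.88 and 3.84), Jchain (10.11 and 10.17 against 6.08 and 5.65) and, near the floor, Cr2. Ighm, the IgM heavy chain, was high in both (12.83 and 12.84 against 13.22 and 11.78), while Pax5 lay at or below the filter value on all 4 arrays. The summed B cell level was 13.32 on both Tfh arrays and 13.46 and 11.96 on the Th17 arrays. Of 7 tested MHC class II genes 1 was called higher on both scales, with summed levels of 13.30 and 13.29 in Tfh against 12.06 and 11.94.

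The log2 summed level of macrophage markers was 13.95 and 13.92 in Tfh and 12.93 and 12.67 in Th17, with Ctss, cathepsin S, the brightest member in both (13.40 and 13.39 against 12.16 and 12.47). Of 15 tested macrophage markers none was called higher and 1 lower on both scales. The lower one, Arg1, encoding the arginase of alternatively activated macrophages, stood at 2.07 and 2.05 in Tfh and 9.32 and 4.49 in Th17 (-4.84, SE 1.70, adjusted p = 0.0475). That call ended without Th17 replicate 1 (-2.43, adjusted p = 0.159), either Tfh array (0.148 for each) or either Th1 array (0.0748 and 0.0747). Among 10 measured CD8 and NK cell genes the summed level was 10.47 and 10.57 in Tfh and 12.98 and 10.80 in Th17, and of 9 tested 1 was called each way on both scales. Gzmk, granzyme K, was higher in Tfh (8.32 and 8.51 against 2.54 and 2.50). Klrk1, the activating receptor NKG2D, was lower (2.62 and 2.60 against 6.77 and 8.74), a call lost without Tfh replicate 1 (0.0822), Tfh replicate 2 (0.0830) or Th17 replicate 2 (0.0942). The summed dendritic cell level was 8.40 and 8.38 in Tfh and 12.39 and 7.41 in Th17, and the summed erythroid and platelet level 7.95 and 7.74 against 9.55 and 10.14. Of 4 tested markers in each of these lists 1 was called lower in Tfh on both scales, Itgax (2.49 and 2.48 against 4.49 and 3.73) and Itga2b (2.04 and 2.03 against 3.26 and 3.25). Ccl22, a chemokine of dendritic cells and activated T cells, held most of the first level on Th17 replicate 1 (8.05 and 8.04 against 12.34 and 6.86). The defining markers Xcr1, Siglech, Hba-a1 and Gp9 lay between 1.93 and 2.51 on all 4 arrays. The T cell genes were high in both types, with 4 of 12 called higher in Tfh on both scales and none lower; Cd3e stood at 13.03 and 12.97 against 9.83 and 10.77, and Cd4 at 11.83 and 11.84 against 9.19 and 9.72.

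**Figure D4:**
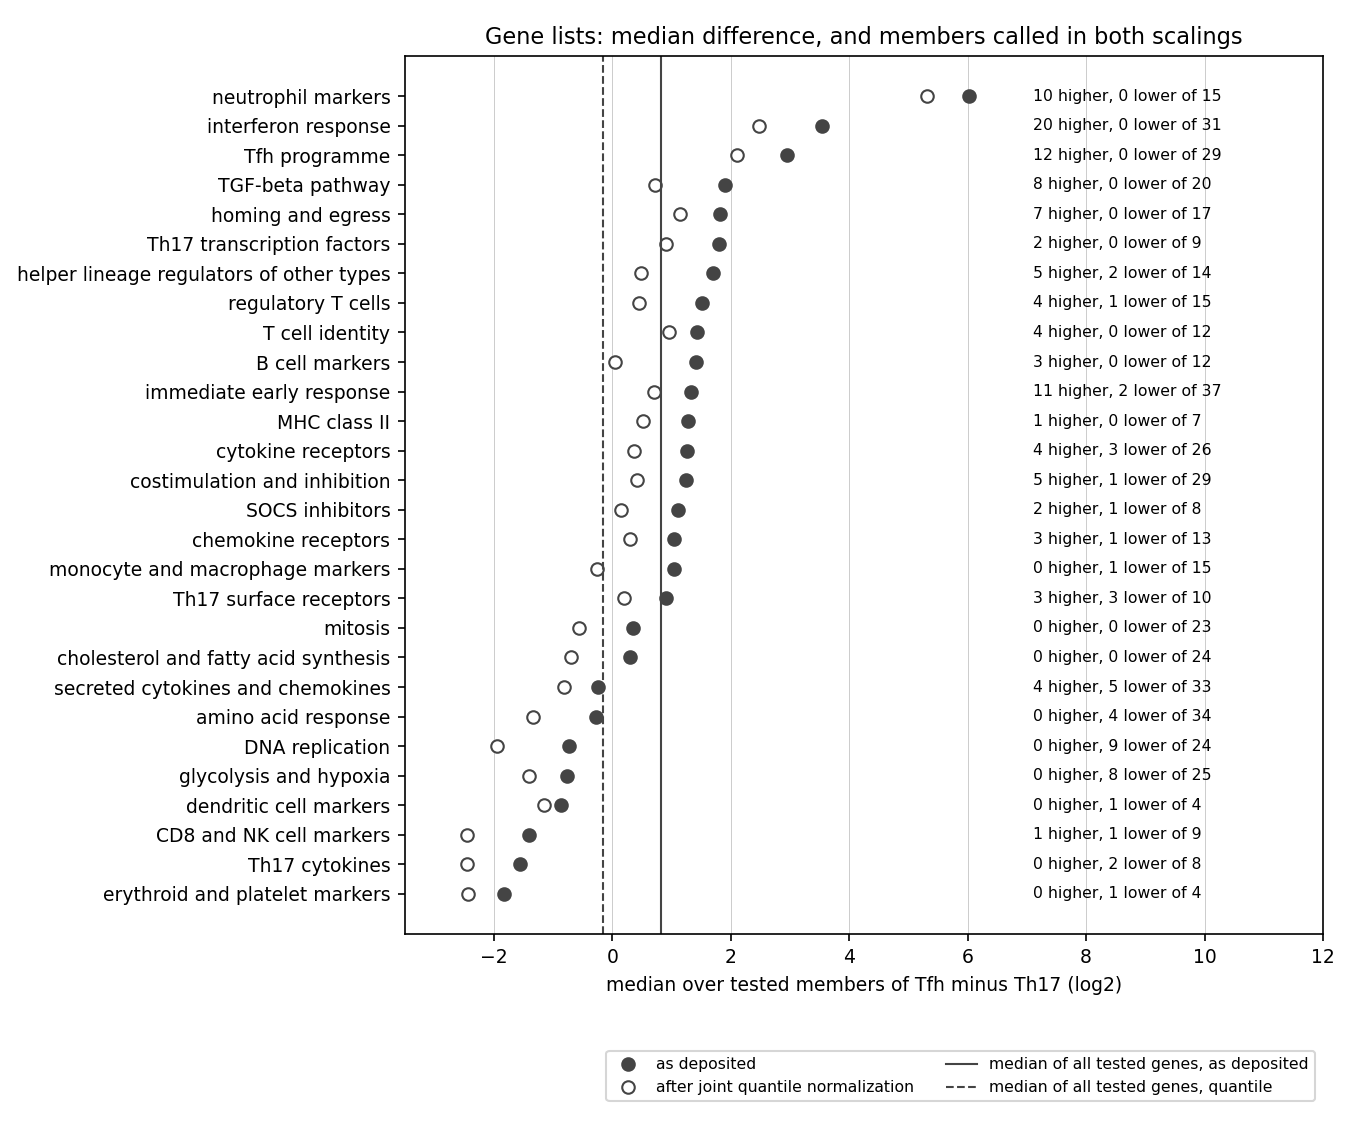
Median difference between Tfh and Th17 (log2, x axis) over the tested members of each gene list (y axis), as deposited (filled circles) and after joint quantile normalization (open circles), with the median of all tested genes as a solid and a dashed line; text at the right counts members called on both scales. Neutrophil, interferon and Tfh lists lie highest, at 6.03, 3.54 and 2.95 as deposited, and the DNA replication and glycolysis lists lie below all-gene medians on both scales.

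Of 17 tested genes of homing and egress 7 were called higher in Tfh on both scales and none lower, beside 14.0% and 6.13% of all tested genes. Klf2, the factor that keeps T cells recirculating and restrains Tfh differentiation, stood at 11.87 and 11.98 in Tfh and 5.13 and 5.64 in Th17 (6.54, SE 0.43, adjusted p = 1.12e-04; 5.67 after quantile normalization). Itgb8, the integrin chain that can activate latent TGF-beta, stood at 10.53 and 10.77 against 3.40 and 3.33 (7.28, SE 0.21, adjusted p = 4.71e-06). S1pr1, the receptor for the egress signal sphingosine 1-phosphate, stood at 10.45 and 10.62 against 6.38 and 7.01, and Itgae, the integrin chain CD103, at 8.32 and 8.35 against 5.04 and 5.06. Each of these had both Tfh arrays above both Th17 arrays.

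Of 20 tested genes of the TGF-beta pathway, 8 were called higher in Tfh on both scales and none lower, beside the same shares of all genes. After quantile normalization alone 1 was called lower. TGF-beta was in the Th17 medium, and its part in these differences was not tested. Tgfb1, the ligand, differed by 2.06 (SE 0.24, adjusted p = 8.36e-04), and Tgfbr2, the ligand-binding receptor chain, by 2.68 (SE 0.21, adjusted p = 2.26e-04). Ldlrad4, an inhibitor of SMAD activation, stood at 9.24 and 9.06 in Tfh and near the floor, at 3.35 and 3.42, in Th17 (5.77, SE 0.13, adjusted p = 2.16e-06). Tgif1, a corepressor of SMAD targets, differed by 3.46 (SE 0.23, adjusted p = 1.23e-04). Smad7, the feedback inhibitor, was called as deposited (2.06) but not after quantile normalization (0.79). Itgb8 and Itgae belong to this list as well.

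Interferon response genes had the largest share of calls among the programme lists: 20 of 31 tested were higher in Tfh on both scales and none lower, beside 14.0% of all tested genes. Their median difference was 3.54, and 2.47 after quantile normalization. These genes are induced when type I interferon activates STAT and IRF9 on a promoter element that repeats the letters GAAA. A pair of GAAA copies with any 2 bases between them, searched on both strands of the RefSeq promoter windows (250 bases before to 50 after the start, GRCm38.p6), occurred in 12 of the 22 members with a window (54.5%), and in 3.99% of all 27025 genes with a window. Per window the shares were 46.4% and 3.44%. The 3 called members with the largest differences and a match before the start are shown with 60 bases around the match nearest the start on the gene's strand, 5′ to 3′, with the match in capitals; in all 3 the match is on the opposite strand, beginning 85, 120 and 122 bases before the start.
Ifit1, chr19:34640779-34640838, plus strand: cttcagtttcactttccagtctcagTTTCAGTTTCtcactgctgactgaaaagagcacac
Rsad2, chr12:26456538-26456597, minus strand: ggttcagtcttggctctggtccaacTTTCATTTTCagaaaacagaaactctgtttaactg
Ifit3, chr19:34583382-34583441, plus strand: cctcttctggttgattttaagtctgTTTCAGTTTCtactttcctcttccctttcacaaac
A match describes letters only, and no binding was measured.

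Ifit1, which binds foreign RNA caps, stood at 10.71 and 11.08 in Tfh and 2.09 and 4.36 in Th17 (7.67, adjusted p = 0.00219). Rsad2, the antiviral enzyme viperin, stood at 10.37 and 10.68 against 3.24 and 3.21 (7.30, SE 0.48, adjusted p = 1.10e-04), and Ifit3 at 9.99 and 10.48 against 3.85 and 4.57 (6.03, adjusted p = 2.03e-04). Oasl2 and Oasl1, members of the oligoadenylate synthetase family, differed by 7.53 and 5.31 (SE 0.43 and 0.12), and Irf7, the factor that amplifies interferon production, stood at 10.08 and 10.17 against 3.59 and 4.98. In all of these both Tfh arrays were above both Th17 arrays. The Th17 arrays themselves differed: replicate 2 was the higher in 25 of the 31 genes (80.6%, beside 45.3% of all tested genes) and by over 1 log2 unit in 14. Gbp2, an interferon-induced GTPase gene, stood at 11.70 on replicate 1 and 14.66 on replicate 2, and Rtp4, an interferon-induced chaperone gene, at 3.66 and 5.92. Tfh, at 14.17 and 14.27, was between the Th17 arrays in Gbp2 and not called. It was above both in Rtp4 (12.27 and 12.48) and called (7.58, SE 1.34, adjusted p = 0.00401).

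Of 37 tested genes of the immediate early response to receptor signals, 11 were higher in Tfh on both scales and 2 lower. The shares of all tested genes were 14.0% and 6.13%. After quantile normalization 6 were called lower, beside 20.3% of all tested genes. The Tfh cells had been restimulated for 4 h, and the part of that restimulation in these differences was not tested. Fosb, an AP-1 subunit gene, stood at 6.22 and 6.56 in Tfh and 2.10 and 2.40 in Th17 (4.14, SE 0.14, adjusted p = 9.66e-06). Zfp36, encoding tristetraprolin, which destabilizes cytokine mRNAs, stood at 12.19 and 12.07 against 8.33 and 8.99 (3.46, SE 0.26, adjusted p = 1.90e-04), and Dusp1, a MAP kinase phosphatase gene, differed by 3.17 (SE 0.29, adjusted p = 3.45e-04). Another AP-1 subunit, Fosl1, was lower in Tfh, at 3.49 and 3.61 against 8.41 and 7.47 (-4.39, SE 0.36, adjusted p = 2.55e-04). AP-1 genes of this list thus differed in direction.

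Of the 12 largest differences downward, none encodes a Th17 cytokine or receptor of the lists. Gja1, a gap junction protein of the connexin family, stood at 2.90 and 2.83 in Tfh and 10.15 and 10.14 in Th17 (-7.28, SE 0.22, adjusted p = 6.20e-06). Crabp2, a retinoic acid carrier, stood at 3.40 and 2.69 against 10.62 and 10.84 (-7.68, SE 0.44, adjusted p = 6.95e-05), and Batf3, an AP-1 family factor, at 4.02 and 3.47 against 11.66 and 10.82 (-7.50, SE 1.36, adjusted p = 0.00448). Tfh was near the floor in each, while Th1 and Th2 had all 3 as well (7.63 to 13.63). Ermn, encoding the cytoskeletal protein ermin, and Serpinf1, the secreted factor PEDF, were likewise lower by 8.06 and 7.90 (SE 1.60 and 1.27).

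Several of these genes are known from macrophages or matrix cells. Mmp12, macrophage elastase, stood at 11.05 and 9.92 in Th17, Atp6v0d2, a proton pump subunit, at 9.88 and 8.70, and Timp1, an inhibitor of metalloproteinases, at 9.70 and 7.87. Dab2, an endocytic adaptor, stood at 8.90 and 9.68 in Th17, and Lum, the matrix proteoglycan lumican, at 11.34 and 7.32. All were between 2.07 and 2.52 on the Tfh arrays. In Lum and Dab2 the Th17 arrays were also above every Th1 and Th2 array, without passing the test against their mean (6.41, adjusted p = 0.133 and 5.90, adjusted p = 0.160). The part of macrophages or other cells in these differences was not tested.

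DNA replication genes were lower in Tfh: 9 of 24 tested were called lower on both scales, beside 6.13% of all tested genes, and none higher. Cdc6, which loads the replicative helicase, stood at 7.64 and 7.74 in Tfh and 11.34 and 10.55 in Th17 (-3.26, SE 0.32, adjusted p = 4.71e-04), and Rrm2, the small ribonucleotide reductase subunit, at 11.45 and 11.53 against 12.84 and 12.88 (-1.38, SE 0.23, adjusted p = 0.00307). The median difference was -0.73, and -1.95 after quantile normalization. None of 23 tested mitosis genes was called on both scales, although after quantile normalization alone 6 were called lower.

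In the glycolysis and hypoxia list 8 of 25 tested were lower in Tfh on both scales, beside 6.13% of all tested genes, and none higher. Th17 replicate 1 was above replicate 2 in 21 of the 25 (84.0%, beside 54.7% of all tested genes). It was above by over 1 log2 unit in 11 (44.0%, beside 6.45%). The median difference of Tfh was -1.24 from Th17 replicate 1 and -0.39 from replicate 2. Vegfa, the vascular growth factor induced by hypoxia, stood at 2.80 and 2.79 in Tfh and 8.10 and 6.71 in Th17 (-4.61, SE 0.72, adjusted p = 0.00247). Ak4, a mitochondrial adenylate kinase, stood at 2.24 and 2.23 against 8.21 and 6.77 (-5.26, SE 0.75, adjusted p = 0.00178), with 1 of its other 4 probe sets at 0.03. Hk2, the inducible hexokinase, was lower by 2.54 and Pgk1 by 1.67 (adjusted p = 0.0055 and 3.45e-04), while Ldha missed the 2-fold threshold as deposited (-0.80) and was called lower after quantile normalization (-1.16, adjusted p = 6.89e-04). Hk1, the constitutive hexokinase, was higher in Tfh as deposited (1.42) and not called after quantile normalization (0.56).

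The amino acid response, in which ATF4 induces amino acid synthesis and transport genes, differed between the Th17 arrays. Th17 replicate 1 was above replicate 2 in 33 of 34 tested genes (97.1%, beside 54.7% of all tested genes), by over 1 log2 unit in 27 (79.4%, beside 6.45%), with a median of 1.65. The Tfh mean lay between the Th17 arrays in 19 of the 34 (55.9%, beside 9.46% of all tested genes). Replicate 1 was also the higher in 32 of the 34 genes between the Th1 arrays and in 32 between the Th2 arrays. Chac1, a glutathione-degrading enzyme, stood at 8.12 and 4.24 in Th17 and 5.73 and 5.53 in Tfh, and Trib3, a pseudokinase that feeds back on ATF4, at 8.36 and 5.12 against 6.22 and 6.42. Neither was called, and both turned from lower to higher in Tfh without Th17 replicate 1 (1.38 and 1.21).

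**Figure D5:**
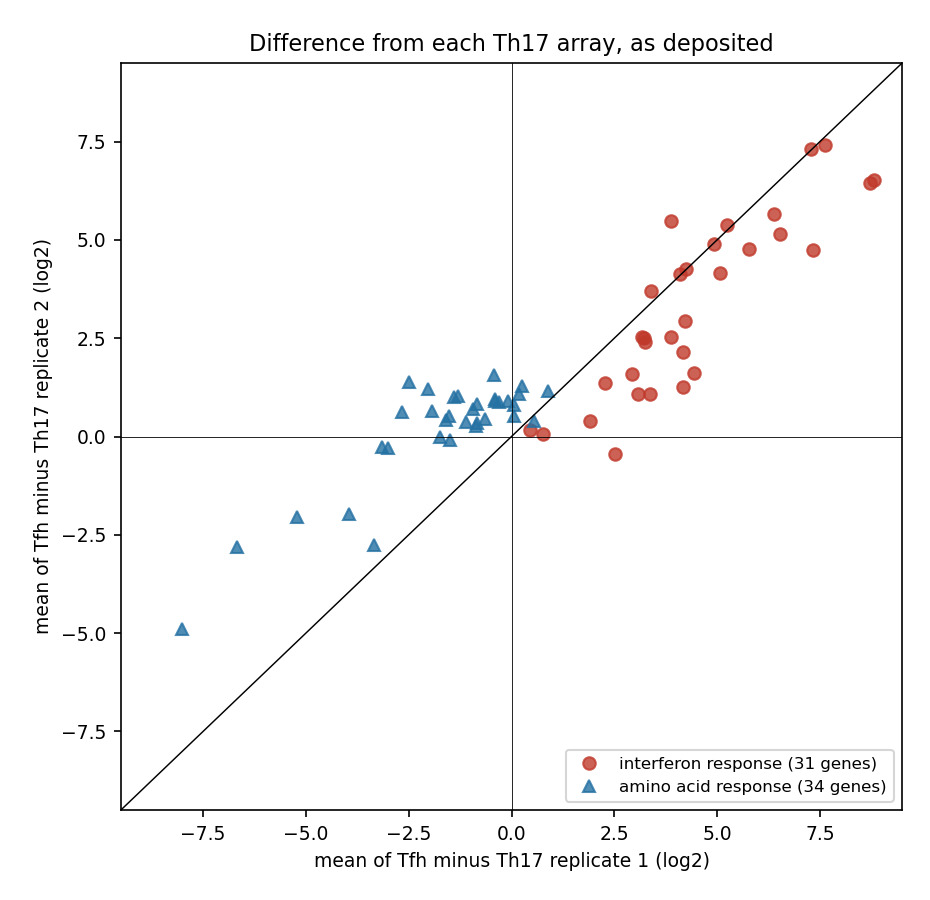
Difference of the Tfh mean from Th17 replicate 1 (x axis, log2) and from Th17 replicate 2 (y axis, log2) for the 34 amino acid response genes (blue triangles) and the 31 interferon response genes (red circles), as deposited; on the diagonal both Th17 arrays are equal. Triangles lie above the diagonal in 33 of 34 genes and circles below it in 25 of 31.

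Of the 34 tested amino acid response genes 4 were called lower in Tfh on both scales, beside 6.13% of all tested genes. Cth, which makes cysteine from cystathionine, stood at 2.63 and 2.60 in Tfh and 10.63 and 7.51 in Th17 (-6.46, SE 1.35, adjusted p = 0.0076). Asns, asparagine synthetase, stood at 8.29 and 8.45 against 12.33 and 10.33 (-2.97, SE 0.82, adjusted p = 0.021; -4.24 after quantile normalization), Slc7a3, a cationic amino acid transporter, at 2.23 and 2.21 against 8.89 and 5.02, and Stc2, the hormone stanniocalcin 2, at 2.15 and 2.13 against 5.49 and 4.91. In these 4 both Th17 arrays were above both Tfh arrays. The calls for Asns, Slc7a3 and Stc2 ended without Tfh replicate 1 (0.0911, 0.113 and 0.0687), Tfh replicate 2 (0.0795, 0.113 and 0.0694) or Th17 replicate 1 (0.0831, 0.116 and 0.0704), which left differences of -1.96 in Asns and -2.81 in Slc7a3. The call for Slc7a3 also ended without Th2 replicate 1 (0.0548) or 2 (0.0544).

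The letters TGATGNAA, part of the element bound by ATF4 and its partners, occurred on either strand in 10 of the 26 members with a promoter window (38.5%), and in 4.51% of all genes with a window (32.3% and 3.97% per window); matches of both motifs started under 10 bases apart in 8 of all windows. Among the 4 called genes 1 had a match before the start, shown in capitals as above, on the gene's own strand, beginning 23 bases before the start.
Asns, chr6:7693210-7693269, minus strand: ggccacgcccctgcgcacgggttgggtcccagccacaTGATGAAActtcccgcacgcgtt

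Other lists also differed between the Th17 arrays. Replicate 1 was the higher in all 12 tested B cell markers, by over 1 log2 unit in 8, and in 14 of 15 macrophage markers, by over 1 in 12, with Lyz2, lysozyme M, at 8.92 and 7.39. Pf4 and Ppbp, chemokines of platelets, stood at 8.97 and 6.93 on replicate 1 and 5.91 and 2.26 on replicate 2, and Chil3, the macrophage and neutrophil protein Ym1, at 8.59 and 2.14. Tfh lay below both Th17 arrays in Pf4 (4.85 and 4.44) and above both in Chil3 (11.37 and 11.43), which was called higher as deposited (6.03) but not after quantile normalization. The difference in Chil3 was 9.26 without Th17 replicate 1 and 2.81, no longer called (adjusted p = 0.0967), without Th17 replicate 2. That call was also lost without either Tfh array (0.142 and 0.144), either Th1 array (0.0718 and 0.0717) or either Th2 array (0.0582 and 0.0577).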

How the data were processed

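Per the labels, total RNA was extracted with Trizol and labelled by the standard Affymetrix in vitro transcription protocol, and the submitters' processing notes name GCRMA, with no version. The deposited values are GCRMA log2 values, per the labels and the values; which arrays were normalized together is not given in the sources used here. Of 45101 probe sets 34945 had 1 symbol in the platform annotation, 932 several, 9160 none, and 64 were controls. Where several probe sets shared a symbol, the one brightest on average across the 8 arrays stood for the gene, which left 18193 genes. A gene was tested if 2 or more arrays exceeded 3.13, the 50th percentile over the whole table.

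Tests used limma 3.58.1 in R 4.3.3 on all 8 arrays, with 1 coefficient per group and a mean-variance trend (4 residual and 1.78 prior degrees of freedom), two-sided, with Benjamini-Hochberg adjustment. SE is that of the moderated fit. The number of arrays limits the precision. The procedure was tested on simulated data. The members and 28 lists were chosen with earlier results of these data known; 484 of the 522 list genes had values, and the others were not analysed here. Older symbols were updated through RefSeq names (GRCm38.p6).

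Named genes were the 12 largest each way on both scales, 8 each way for Th17 against the mean of Th1 and Th2, all members of the 5 helper lists, the 5 with the smallest adjusted p per other programme list, and the 4 with the highest mean in Tfh and in Th17 per list of other cells, without symbols of the Rik, Gm and LOC kinds among the largest. Further genes named were chosen after their values were seen. Alternatives covered scaling, filters, probe sets, the variance model, thresholds, arrays left out and a replicate block.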

Additional observations from a re-analysis of the deposited data

Results flagged for a closer look

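For 27 genes the difference of Tfh from Th17 and that from the mean of Th1 and Th2 were unequal by the limma test of the difference itself (Th17 minus the mean of Th1 and Th2, adjusted p under 0.05 and at least 1 log2 unit). The 8 largest each way whose arrays did not overlap are given, 16 in all. Higher in Th17 were Ccr6 (5.14), Il17a (4.62), Espn (2.92), Il1r1 (2.57), Bpifc (2.27), Milr1 (2.23), Ppp1r14c (2.21) and Ift81 (1.74). Lower in Th17 were Epas1 (-4.77), Serpinb6b (-3.62), Serpinb9 (-3.0), Ggct (-2.62), Sh3d19 (-1.89), Zpbp2 (-1.59), Myo9a (-1.4) and Ankrd36 (-1.38). Only Serpinb6b and Serpinb9 were well below both Th1 and Th2. In the other lower genes Th1 lay near Th17, and the high Th2 level raised the mean. Zpbp2 stood at 2.76 and 2.75 in Th17, 2.76 and 2.78 in Th1, and 5.99 and 5.84 in Th2. Ankrd36 stood at 2.96 and 2.94 in Th17, 2.96 and 2.99 in Th1, and 5.62 and 5.74 in Th2. The adjusted p stayed under 0.05 in each alternative run for Ppp1r14c, Serpinb9, Zpbp2 and Ankrd36, with highest values of 0.0225, 0.0225, 0.0225 and 0.0296. Sh3d19 and Myo9a lost it under 1 alternative, the mean of a gene's probe sets (adjusted p = 0.0759 and 0.0875). With the replicate number as a block, the call ended in 9 of the 16: Ccr6 (adjusted p = 0.0563), Il17a (0.0791), Espn (0.0596), Il1r1 (0.0772), Bpifc (0.12), Milr1 (0.0856), Ift81 (0.0508), Epas1 (0.0858) and Ggct (0.0508). Serpinb6b, which encodes a protease inhibitor, lost it in 4 of 19 alternatives and Epas1, encoding HIF-2 alpha, in 11.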

How the results depend on the processing

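Of 220 named genes tested, 145 were called as deposited, of which 113 kept the call without each of the 8 arrays in turn and 83 in each alternative run. Genes called higher in Tfh numbered 4667 as deposited and 1999 at a minimum difference of 2. They numbered 1561 after quantile normalization, 1249 on ranks and 3316 after a median shift. Genes called lower numbered 2266 after quantile normalization, 1108 after a median shift, 1638 on ranks, 1166 with no minimum difference and 311 at a minimum of 2 (467 to 721 with 1 array left out). On both scales, the higher count was 2483 with no minimum and 591 at a minimum of 2 (1122 to 1615 with 1 array left out), and the lower count 1159, 309 and, with the Tfh arrays averaged as 1 replicate, 446 (451 to 720 with 1 array left out). For Th17 against the mean of Th1 and Th2, the 11 higher genes became 18 on ranks, 6 with no filter, 5 with a stricter filter, 7 with the mean of probe sets, 7 at a minimum of 2, and 3 with fewer arrays, with averaged Tfh arrays or with the replicate block (3 to 64 with 1 array left out). The 16 lower genes became 9 at a minimum of 2, 8 with fewer arrays and 9 with averaged Tfh arrays (9 to 53 with 1 array left out).

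The replicate numbers are shared by only 2 arrays per group and the labels tie them to nothing; deviations from the group means correlated at 0.0424 between Tfh and Th17, 0.255 between Th17 and Th1, 0.268 between Th17 and Th2, and -0.0018 to 0.0155 in the other 3 pairs of groups. With the replicate number as a block, 4710 genes were called higher and 699 lower as deposited, and 1584 and 697 on both scales; among named genes, in Tfh against Th17, Socs1 (adjusted p = 0.0518) and Ctss (0.0501) lost a call and Dhcr7 (0.0346) gained one.

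Differences turned sign, with causes not tested, as follows. After quantile normalization they were -0.87 in Ggct, -0.21 in Myo9a, -0.82 in Il10, -0.9 in Il21r, -0.77 in Cd40lg, -0.28 in Pou2af1, -1.34 in S1pr2, -0.48 in Rgs16, -1.3 in Prdm1, -0.19 in Eomes, -0.49 in Bub1b, -0.01 in Kif11, -0.36 in Ndc80, -0.28 in Ebp, -0.22 in Stard4, -0.22 in Insig1, -0.17 in Ighm, -0.1 in Cd79b, -0.33 in H2-Ab1 and -0.33 in Zbtb46. On ranks they were -0.6 in Ggct, -0.21 in Myo9a, -0.68 in Il10, -0.72 in Il21r, -0.46 in Cd40lg, -0.27 in Pou2af1, -0.7 in S1pr2, -0.45 in Rgs16, -0.87 in Prdm1, -0.14 in Eomes, -0.39 in Bub1b, -0.02 in Kif11, -0.29 in Ndc80, -0.25 in Ebp, -0.2 in Stard4, -0.18 in Insig1, -0.16 in Ighm, -0.11 in Cd79b, -0.3 in H2-Ab1, -0.06 in Mmp9, 0.79 in Mmp8 and -0.13 in Zbtb46. After the median shift they were -0.03 in Sh3d19, -0.08 in Zpbp2, -0.18 in Myo9a, -0.04 in Il21r, -0.14 in S1pr2, -0.13 in Rgs16, -0.21 in Prdm1 and -0.06 in Ighm, and with the mean of probe sets 0.05 in Ankrd36, -0.2 in Rgs16 and 0.52 in Mvk. With 1 array left out, differences ranged across 0 in Il10 (-0.86 to 1.99), Ccl20 (-3.67 to 0.75), Il21r (-0.15 to 0.86), Cd200 (-0.52 to 1.87), Pou2af1 (-0.42 to 1.48), Id3 (-0.19 to 0.12), Prdm1 (-0.48 to 0.85), Runx3 (-1.15 to 0.23), Ighm (-0.38 to 1.06), Mzb1 (-1.61 to 1.32), Mmp8 (-3.5 to 1.8), Clec7a (-0.81 to 0.25), Ccl22 (-4.29 to 1.19), Gzmb (-3.28 to 0.46), Gzma (-3.04 to 0.03), Klrd1 (-1.98 to 1.35), Car2 (-2.65 to 1.0), Gbp2 (-0.44 to 2.51), Chac1 (-2.49 to 1.38) and Trib3 (-2.04 to 1.21). Signal near the floor limits the size of any difference from it, and 2 arrays per group limit the precision.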

Other observations

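Receptors and feedback inhibitors of cytokine signalling differed in both directions. The counts in this and the next paragraph stand beside 14.0% of all tested genes called higher on both scales and 6.13% lower. Nothing is read from these counts about the lists. Of 26 tested cytokine receptor genes 4 were higher in Tfh on both scales and 3 lower. Both chains of the IL-12 receptor were among the lower ones: Il12rb2 stood at 3.13 and 3.41 in Tfh and 8.71 and 9.29 in Th17 (-5.72, SE 0.88, adjusted p = 0.00231, limma), and Il12rb1 at 7.90 and 7.92 against 10.39 and 9.85 (-2.21, SE 0.20, adjusted p = 3.51e-04). Of 13 tested chemokine receptor genes 3 were higher and 1 lower. Ccr8 stood at 10.21 and 10.02 against 4.56 and 2.56 (6.55, SE 0.86), and Ccr1 at 3.14 and 3.40 against 9.73 and 7.92 (-5.56, SE 1.03). Of 8 tested genes of the SOCS family, which inhibit cytokine receptors, 2 were higher (Socs5, 3.58, and Socs4, 2.16) and 1 lower (Socs2, -2.61). The 3 other probe sets of Socs4 differed by -2.3 to 0.34. With the mean of a gene's probe sets the calls for Socs4 and Socs2 ended.

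Of 33 tested genes of secreted cytokines and chemokines 4 were higher in Tfh on both scales and 5 lower. Osm, oncostatin M, stood at 6.60 and 6.85 in Tfh and 9.48 and 9.34 in Th17 (-2.68, SE 0.42), and Ccl5, a chemokine of effector T cells, at 10.76 and 10.53 against 7.33 and 6.80 (3.58, SE 0.63). Of 29 tested genes of costimulation and inhibition 5 were higher and 1 lower, with Tnfrsf1b, a TNF receptor, at 11.36 and 11.14 against 7.70 and 8.06 (3.37, SE 0.23). None of 24 tested genes of cholesterol and fatty acid synthesis was called as deposited; after quantile normalization 7 were called lower in Tfh. Th17 replicate 1 was above replicate 2 in 21 of these 24.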
